A study of Rattus norvegicus with 102 samples.

Results

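The comparison described here is that of old, memory-intact rats with young rats in the dentate gyrus (DG), the subfield through which cortical input enters the hippocampus. Its members are the 22 DG libraries of 12 aged-unimpaired (AU) and 10 young animals, chosen by their labels from 102 libraries of 34 rats. All rats were male Fischer 344, an inbred strain, aged 5 to 6 months (young) or 17 to 22 months (aged). Every rat was trained in a water maze and gave CA1, CA3 and DG, with 1 poly-A mRNA library per subfield per rat and no pooling of animals, so each DG library is a separate animal. Aged rats had been classed by the authors as unimpaired or impaired (AI) from the discrimination index of the probe trial, so the AU group is a behavioural selection of the aged rats and not a random sample of them. No rat carried a transgene or received a drug, as far as the labels say. The 12 AI rats are used only beside the comparison.

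Values are normalized counts, that is, reads per gene divided by a library size factor, and differences are on the scale of log2(normalized count + 1), AU minus young, ± SE. The DG libraries held 8263923 to 18739670 reads in genes in young rats (median 9741515) and 4742307 to 11957527 in AU rats (median 8651197.5). Rat identifiers fall into an R9 series (5 young, 6 AU) and an R1-R2 series (5 young, 6 AU), whose meaning the labels do not give. The study obtained and tested its rats at 2 sites, each with its own colony, and the 2 series hold as many rats of each age as the 2 sites did, though no label ties a rat to a site. Colony, site and series cannot be told apart here, and values within each series are printed where they matter. The mean level of granule cell markers was highest in DG among the 3 subfields of the same rat in 9 of 10 young and 11 of 12 AU rats. The exceptions were the DG library of young rat R9881, which lay 1.55 log2 units under the median DG library, where choroid plexus markers summed to 7785 against a young median of 1290, and that of AU rat R9865, which lay 1.12 log2 units under it, where CA1 pyramidal markers summed to 10161 against an AU median of 2676. Genes and lists that moved markedly without both libraries are given with and without them. In tissue such as this, fewer cells of a type and less RNA per cell cannot be told apart.

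The DG is built around granule cells, whose mossy fibre axons reach CA3, and it is one of the few places in the adult brain where neurons are still born. Microglia, the resident macrophages of the brain, survey this tissue, prune synapses through the complement proteins C1q, C3 and C4, and take up debris into lysosomes through receptors such as Trem2. When primed they also make class II molecules of the major histocompatibility complex (MHC), which display peptides from ingested protein to helper T cells, while class I molecules display peptides from within the cell. Astrocytes respond to the same surroundings by raising the intermediate filament protein Gfap.

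For region DG, 16166 genes with a mean normalized count of at least 5 were tested with limma, and 2 genes rose in AU rats at a Benjamini-Hochberg adjusted p under 0.05, which is 0.0124% of the genes tested. They were Gpnmb and Cdh1. No gene fell at that threshold (0%), while 532 genes were higher and 484 lower in AU at an unadjusted p under 0.05 (6.28%). On the reads recovered from the same values, edgeR called 0 genes in either direction and DESeq2 called 17 higher and 2 lower. On simulated counts DESeq2 made a larger share of false calls than limma, 8.7% against 3.64%, at the same threshold. At an unadjusted p under 0.01, 113 genes were higher in AU (0.699%) and 45 lower (0.278%), together 0.977% of the genes tested, no more than the threshold itself would give if no gene differed. The median difference over all genes was 0.00, with 8110 genes above 0. No gene had groups that did not overlap in either direction. Members of the gene lists below are counted at the unadjusted threshold to describe where such genes lay, and only Gpnmb and Cdh1 passed the adjusted test. Several lists share members with the age-related genes of the study, which it found in part on these libraries. Among them are Trem2, Pld4, Csf1r, Laptm5, Gpr183, C3, C4b, Cd74, Ctsz, Npc2, Gfap, Cdh23 and Pcdhb4. The counts of their lists are therefore not independent of that earlier result.

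Gpnmb (ENSRNOG00000008816) encodes a membrane glycoprotein of phagocytes that is carried to lysosomes. Its normalized count in DG had a lowest, median and highest value of 46.1, 80.9 and 169 in young rats, and of 136, 157 and 250 in AU rats. The groups overlapped through 1 young library, that of R9881 at 169, and the other 9 young rats lay at or under 109, below every AU rat. Gpnmb rose by 1.02 ± 0.17, a 2.03-fold difference (p = 2.65e-06, adjusted p = 0.0241 with limma). It was 0.91 higher in AU within the R9 series and 1.13 higher within the R1-R2 series. Without R9881 and R9865 the difference was 1.12 (adjusted p = 0.00265), and 11 of 11 AU rats were above the highest remaining young rat. The AI rats ran from 63.4 to 297 with a median of 200.

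Cdh1 (ENSRNOG00000020151) encodes E-cadherin, the calcium-dependent adhesion molecule of epithelia, which some myeloid cells also carry. The study had already listed it among the genes raised with age in every subfield, in part on these libraries. In young rats its lowest, median and highest normalized counts were 0, 5.62 and 21.9, and in AU rats they were 15.6, 37 and 49.6. Of the AU rats 9 of 12 lay above the highest young rat, and all 12 lay above the young median. Cdh1 rose by 2.43 ± 0.41, or 5.38-fold on the log2(normalized count + 1) scale (p = 2.98e-06, adjusted p = 0.0241), on levels of at most 49.6. Both series gave a like difference, 2.38 in R9 and 2.48 in R1-R2, and without R9881 and R9865 it was 2.53 (adjusted p = 0.022). The AI rats ran from 19.7 to 62.3.

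ENSRNOG00000028900, a gene to which no symbol could be given, came next, with normalized counts of 0, 5.15 and 26.6 in young and 14.1, 29.2 and 48.2 in AU rats. The groups overlapped, with 7 of 12 AU rats above the highest young rat. Its difference was 2.27 ± 0.42 and just missed the threshold (adjusted p = 0.0541). It passed when the identifier series was added to the fit (adjusted p = 0.0251). It also passed with a pseudocount of 5, with all 34 DG libraries in 1 fit and with DESeq2, and in none of the other settings.

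**Figure D1:**
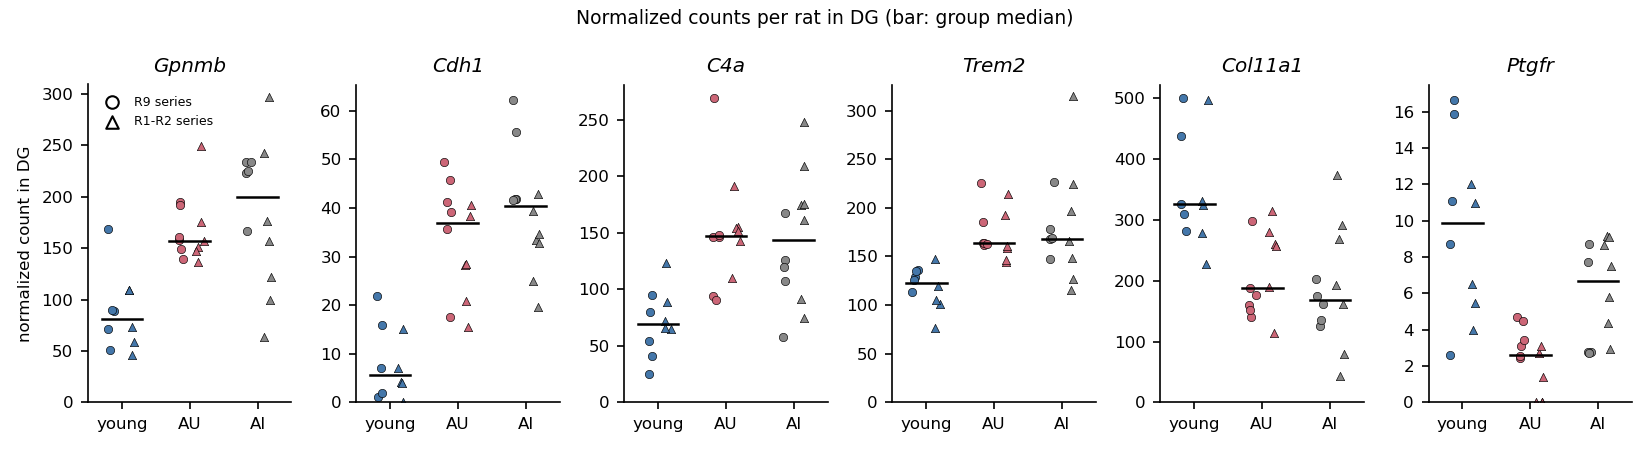
Normalized counts in DG of 6 genes in each young, AU and AI rat, with circles for the R9 series, triangles for the R1-R2 series and a bar at the group median. Gpnmb, Cdh1, C4a and Trem2 sit higher in AU than in young rats with 2 to 8 AU rats within the young range, and Col11a1 and Ptgfr sit lower in AU.

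Genes that mark microglia were mostly higher in AU rats. Of 20 listed and tested, 18 were above 0, the median difference was 0.27 against 0.00 for all genes, and 6 were higher and 0 lower at an unadjusted p under 0.01, where 0.699% of all genes were higher. None of the 20 passed the adjusted test in limma. Trem2, the lipid-sensing receptor of microglia, had normalized counts of 76.5, 122 and 147 (lowest, median, highest) in young rats and 144, 163 and 225 in AU rats. Of the young rats 9 of 10 lay under every AU rat, and 10 of 12 AU rats lay above every young rat. Its difference was 0.55 ± 0.11 (adjusted p = 0.12 with limma and 0.00408 with DESeq2), 0.46 in R9 and 0.64 in R1-R2, and 0.53 without R9881 and R9865, the latter having the highest AU value. Smaller differences were seen in Pld4, a lysosomal exonuclease (0.42), in the purine receptor P2ry12 (0.41), in the lysosomal membrane protein Laptm5 (0.38) and in Csf1r, the receptor on which microglial survival depends and the most abundant member of the list (0.27). Tyrobp, the signalling adaptor of Trem2, had a difference of 0.48 and a single AU rat above the young range.

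The markers of activated microglia lay on both sides of 0. Of 15 listed, 11 were tested, 8 were above 0 and the median was 0.08 (0.18 without R9881 and R9865), with 3 higher at an unadjusted p under 0.01. Gpnmb, described above, was one of these. The others were the oxysterol receptor Gpr183 (1.03, adjusted p = 0.705) and Ch25h, which makes the sterol from which its ligand is formed (0.84, adjusted p = 0.705). Lipoprotein lipase, Lpl, lay on the other side at -0.51 (p = 0.0482, adjusted p = 0.705). Apoe, the most abundant member, ran from 19605 to 29477 in young and from 16362 to 37670 in AU rats, and its difference of 0.08 was under its SE of 0.13.

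Complement genes were described by 20 names, of which 17 were tested, 13 were above 0 and 6 were higher at an unadjusted p under 0.01, with a median of 0.31. C4a, which encodes the fourth component that C1s cleaves early in the classical pathway, had normalized counts of 25, 69.0 and 124 in young rats and 90.7, 147 and 269 in AU rats. Of the AU rats 9 of 12 exceeded every young rat. The difference was 1.12 ± 0.21 (adjusted p = 0.0621), 1.37 in R9 and 0.88 in R1-R2, and 1.08 without R9881 and R9865 (adjusted p = 0.109). The adjusted p was 0.0265 with the identifier series in the fit and 0.00131 with DESeq2. C4a stands on 2 rows of the table and C4b is a near-identical copy, so reads could be split among them. The second C4a row gave 0.96 and C4b gave 0.87 ± 0.18 (adjusted p = 0.132 with limma and 0.00408 with DESeq2), and all 3 rows lay higher in AU rats.

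C1qa, a chain of the recognition molecule C1q, ran from 510 to 804 (median 598) in young and from 584 to 1299 (median 867) in AU rats. A total of 8 AU rats lay above the young range, and the difference was 0.48 ± 0.12 (adjusted p = 0.396). The partner chains C1qc and C1qb had differences of 0.38 and 0.30, and the protease C1r 0.30. C3, the component on which the pathways converge, ran from 245 to 971 (median 541) in young and from 558 to 1201 (median 813) in AU rats, with 3 of 12 AU rats above the young range. Its difference was 0.79 ± 0.21 (adjusted p = 0.448, and 0.0265 with the identifier series in the fit). Cd59, which blocks the terminal membrane attack complex and is the most abundant member, differed by -0.02 ± 0.10.

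The list with the highest median difference was MHC class II presentation. Of 12 genes listed, 9 were tested and all 9 were above 0, with a median of 1.56. The 5 genes of the class II molecules themselves, RT1-Ba, RT1-Bb, RT1-Da, RT1-Db1 and the invariant chain Cd74, which holds the peptide groove closed until the molecule reaches the endosome, were higher in AU at an unadjusted p under 0.01. None passed the adjusted test over all genes with limma, while DESeq2 called RT1-Ba (adjusted p = 0.00549) and RT1-Db1 (adjusted p = 0.0145). RT1-DOa, RT1-DOb and the class II transactivator Ciita were under the minimum mean of 5. The RT1 genes belong to a family of like sequence, so the division of reads among them is uncertain.

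The RefSeq promoters of 4 of these genes on chromosome 20 of the assembly GRCr8 are shown because they belong to the list with the highest median, from 250 bases before to 50 after the start of the gene, in the 5′ to 3′ direction of the gene. Matches to the CCAAT box, the binding site of NF-Y in class II promoters, are in capitals, as CCAAT or as its complement on the other strand, ATTGG. RT1-Ba lies on the plus strand at chr20:4576807-4577106, RT1-Bb on the minus strand at chr20:4604069-4604368, RT1-Da on the plus strand at chr20:4515165-4515464 and RT1-Db1 on the minus strand at chr20:4560113-4560412.
RT1-Ba: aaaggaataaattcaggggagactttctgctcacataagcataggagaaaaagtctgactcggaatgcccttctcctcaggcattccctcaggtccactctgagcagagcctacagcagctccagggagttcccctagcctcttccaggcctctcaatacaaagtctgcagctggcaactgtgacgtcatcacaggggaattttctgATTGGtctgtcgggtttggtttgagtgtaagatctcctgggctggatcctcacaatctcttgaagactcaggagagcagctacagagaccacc
RT1-Bb: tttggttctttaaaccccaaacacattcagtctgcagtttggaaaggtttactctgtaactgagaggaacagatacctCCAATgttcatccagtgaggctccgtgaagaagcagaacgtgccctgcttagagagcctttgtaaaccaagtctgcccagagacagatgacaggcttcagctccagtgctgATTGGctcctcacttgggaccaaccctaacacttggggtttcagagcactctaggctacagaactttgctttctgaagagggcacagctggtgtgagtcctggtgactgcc
RT1-Da: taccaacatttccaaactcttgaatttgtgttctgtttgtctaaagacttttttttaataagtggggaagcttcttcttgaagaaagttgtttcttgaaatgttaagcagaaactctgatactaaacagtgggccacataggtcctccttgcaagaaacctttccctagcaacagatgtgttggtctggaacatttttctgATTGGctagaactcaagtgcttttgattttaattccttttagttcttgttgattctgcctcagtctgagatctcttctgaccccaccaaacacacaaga
RT1-Db1: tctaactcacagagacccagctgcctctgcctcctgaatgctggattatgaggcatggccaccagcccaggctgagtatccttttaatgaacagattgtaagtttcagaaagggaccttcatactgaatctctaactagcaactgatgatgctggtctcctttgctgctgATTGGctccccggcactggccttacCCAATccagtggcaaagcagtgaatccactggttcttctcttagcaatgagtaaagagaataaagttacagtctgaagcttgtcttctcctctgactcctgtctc
The first base of the match stood 43 bases before the start in RT1-Ba and 49 in RT1-Da, 172 and 61 bases before it in RT1-Bb, and 80 and 55 bases before it in RT1-Db1. With Cd74, all 5 called members held the motif on either strand, as did 37.5% of 33469 promoters of the same length. None of the 5 held the interferon-stimulated response element core GAAANNGAA (9.71% of all promoters), the PU.1 core GAGGAAGT (2.42%), the gamma-activated site TTCNNNGAA (8.87%) or the CLEAR element CACGTGAC (1.85%), searched on both strands. The reference strain is not Fischer 344, and a match describes letters only.

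Cd74 had normalized counts of 19.5, 93.4 and 175 in young rats and 111, 206 and 671 in AU rats. The groups overlapped, with 6 of 12 AU rats above the young range and all 12 above the young median. Its difference was 1.56 ± 0.37 (adjusted p = 0.278). The level also differed between the identifier series, and within R9 the young rats ran from 106 to 175 and the AU rats from 126 to 671, while within R1-R2 the young rats ran from 19.5 to 80.3 and every AU rat lay above them, from 111 to 252. The difference was 1.55 in R9 and 1.57 in R1-R2, and with the series in the fit the adjusted p was 0.017.

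RT1-Ba, the alpha chain of the B molecule, ran from 3.99 to 28.3 (median 13.8) in young and from 11.5 to 150 (median 49.2) in AU rats. Its difference was 1.80 ± 0.40 (adjusted p = 0.21), 1.75 in R9 and 1.85 in R1-R2, and the adjusted p was 0.0251 with the series in the fit. The beta chain RT1-Bb had medians of 14.8 and 42.5 and a difference of 1.78 ± 0.49 (adjusted p = 0.608). Of the AU rats 8 exceeded the young range for RT1-Ba and 6 for RT1-Bb.

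The D molecule followed the same course. RT1-Da had medians of 20.8 in young and 56.9 in AU rats and a difference of 1.56 ± 0.44 (adjusted p = 0.609). RT1-Db1 had medians of 14.0 and 35.4 and a difference of 1.65 ± 0.45 (adjusted p = 0.558). AU rat R9867 had the highest AU value of all 5 genes, 305 for RT1-Da and 191 for RT1-Db1. RT1-DMb, a chain of the peptide exchange factor, differed by 0.47 (p = 0.0331), and the abundant protease cathepsin S, Ctss, by 0.22 ± 0.14.

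**Figure D2:**
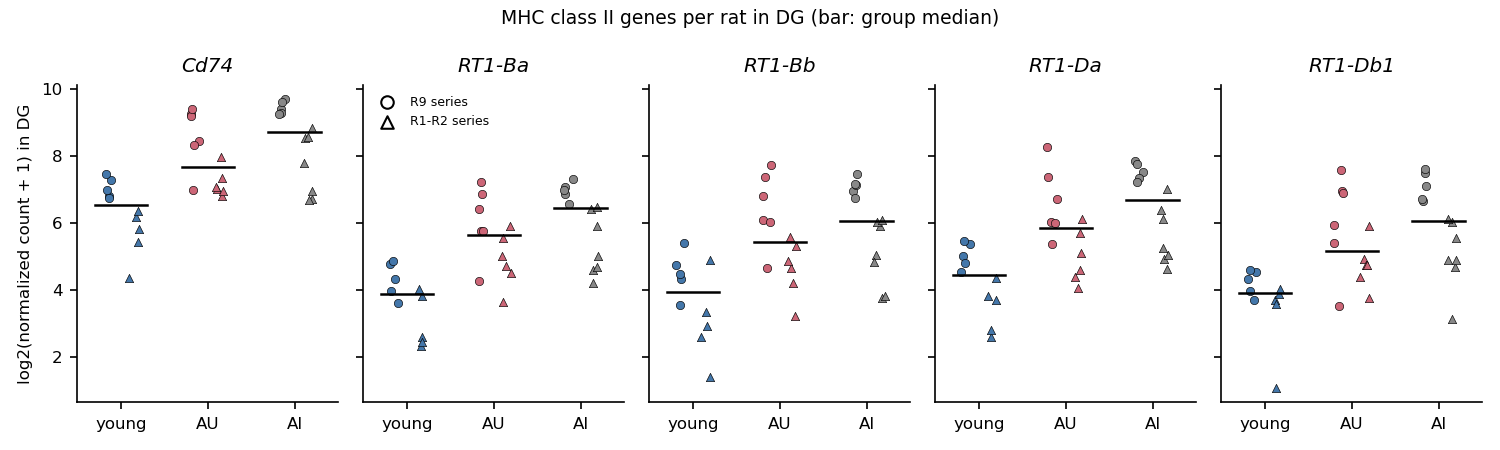
Log2(normalized count + 1) in DG of 5 MHC class II genes in each young, AU and AI rat, with circles for the R9 series, triangles for the R1-R2 series and a bar at the group median. In both series the AU median of each gene lies above the young median, and the R9 medians of young and AU rats lie above those of R1-R2.

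Other antigen presenting and phagocytic genes had smaller differences. Of the MHC class I list 16 of 18 tested genes were above 0 with a median of 0.30, and 2 were higher at an unadjusted p under 0.01: the peptide transporter Tap1 (0.72 ± 0.21) and the class I gene RT1-CE16 (0.49 ± 0.14), with 4 at that threshold without R1930. The tapasin gene Tapbp differed by 0.25 and B2m, the light chain of class I, by 0.05. All 17 tested genes of the Fc receptor and phagocyte oxidase list were above 0 with a median of 0.36, yet 0 reached that threshold (1 without R9881 and R9865). Inpp5d, the lipid phosphatase SHIP1, differed by 0.36 (p = 0.0137), the Fc receptor gamma chain Fcer1g by 0.36 (p = 0.0279), the oxidase subunit Cyba by 0.59 (p = 0.0388) and the engulfment receptor Mertk by 0.09. All had an adjusted p of at least 0.705.

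Of 25 lysosome genes tested, 21 were above 0, but the median was 0.11 and 4 were higher at an unadjusted p under 0.01. Ctsz, which encodes cathepsin Z, had normalized counts of 98.5, 129 and 140 in young rats and 117, 196 and 287 in AU rats. The young rats were tightly grouped and 9 of 12 AU rats lay above them, with a difference of 0.61 ± 0.14 (adjusted p = 0.211 with limma and 0.00906 with DESeq2). The cholesterol carrier Npc2 (0.44), progranulin, Grn (0.29), and Ctsa, which encodes the protective protein of lysosomal sialidase (0.24), were the others. Psap, the precursor of the saposins and the most abundant member, differed by 0.11 ± 0.10.

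Markers of lymphocytes, perivascular macrophages and red blood cells were looked at beside these lists. Lymphocyte markers summed to 19.0 to 66.8 normalized counts in young and 25 to 113 in AU rats, with 2 of 14 abundant enough to test and a median of 9 of 14 at 0 in both groups. Perivascular macrophage markers summed to 44.9 to 192 in young and 52.8 to 168 in AU rats, 4 of 5 tested being above 0 with a median of 0.26, and red blood cell markers to 187 to 535 and 238 to 1320. Their part in the immune differences was not tested.

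Interferon response genes had a higher median difference in the R1-R2 series than in R9, though the list itself was not tested between series. Over all rats 23 of 26 tested genes were above 0 with a median of 0.27, and 2 were higher at an unadjusted p under 0.01. Ifi27, an interferon-induced mitochondrial protein, ran from 684 to 1012 (median 870) in young and from 722 to 1536 (median 1172) in AU rats, with 9 AU rats above the young range. Its difference was 0.42 ± 0.10 (adjusted p = 0.312 with limma and 0.0459 with DESeq2), 0.33 in R9 and 0.52 in R1-R2. Irf7, the transcription factor that amplifies the type I response, ran from 43.1 to 87.2 in young and from 57.4 to 206 in AU rats, the highest being R1930. Its difference was 0.70 ± 0.19 (adjusted p = 0.5), 0.32 in R9 and 1.08 in R1-R2.

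Within R9 the median of the interferon list was -0.08, with 12 of 27 genes above 0, and within R1-R2 it was 0.52, with 26 of 27 above 0. Rtp4, an interferon-induced chaperone, gave -0.08 in R9 and 1.25 in R1-R2. The interaction of group and series for Rtp4 was 1.33 ± 0.38 (p = 0.00168). Its adjusted p was 0.665, a value it shared with other genes and below which no gene fell, and its p was not the smallest. Without R1930 the median of the list over all rats was 0.17, and R1-R2 was not fitted alone without that rat. The list score of the AU rats, the mean of the centred log2 values, lay between -0.12 and 1.02, and that of the young rats between -0.69 and 0.48.

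**Figure D3:**
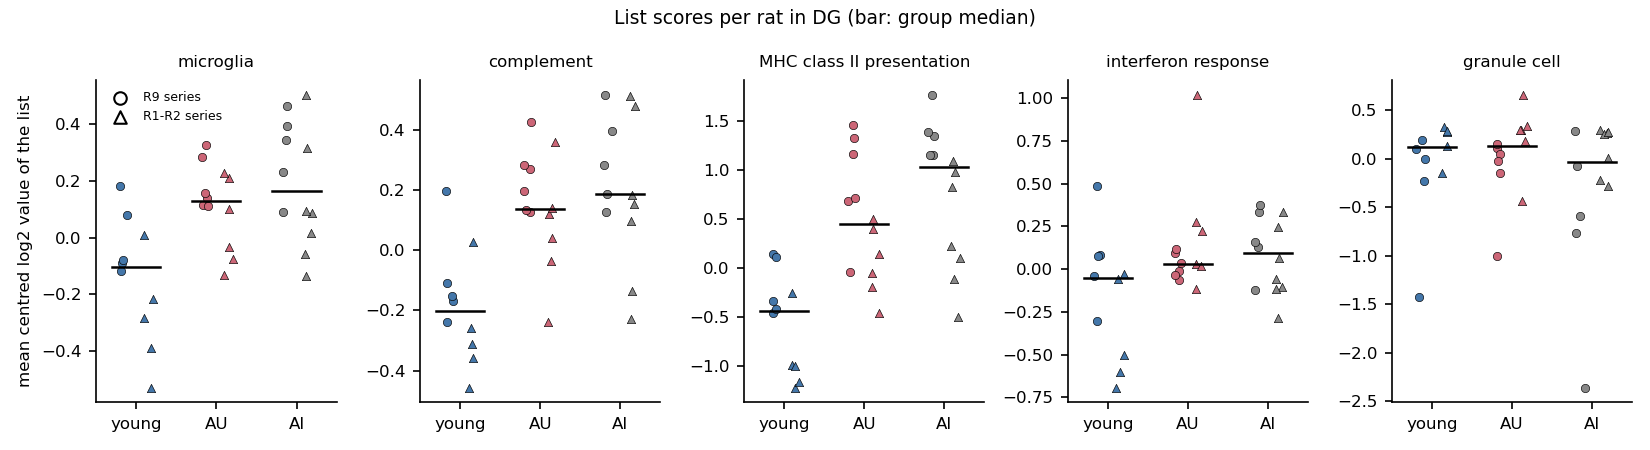
Mean log2 value of the genes of 5 lists in each DG library, centred on the mean of the 22 young and AU libraries, with circles for the R9 series, triangles for the R1-R2 series and a bar at the group median. The microglia, complement and MHC class II scores overlap between young and AU rats but have higher AU medians. The interferon score is set apart mainly by R1-R2 young rats and AU rat R1930. For granule cell markers 1 young and 1 AU rat lie far below the others of their group. The lowest granule cell score of all is that of an AI rat, -2.36.

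Reactive astrocyte genes were led by Gfap. Its normalized counts were 9530, 10916 and 15186 in young rats and 11419, 16155 and 24274 in AU rats, so that 6 of 12 AU rats lay above the young range and all 12 above the young median. The difference was 0.47 ± 0.11 (adjusted p = 0.283 with limma and 0.0478 with DESeq2). Of 17 reactive astrocyte genes tested 13 were above 0, with a median of 0.15 and 3 higher at an unadjusted p under 0.01, the others being Aspg (0.62) and the transcription factor Stat3 (0.22). The pentraxin Ptx3 went the other way at -0.96 ± 0.36 (p = 0.0138, adjusted p = 0.705). General astrocyte markers had a median of 0.05 with 8 of 14 above 0 and none at that threshold, among them Aldoc (0.22) and Sox9 (0.28).

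Genes of adult neurogenesis and proliferation lay lower in AU rats. Of 19 tested 4 were above 0 and the median was -0.22. Dcx, the microtubule protein of migrating young neurons, had normalized counts of 185, 350 and 617 in young rats and 129, 255 and 412 in AU rats. The ranges overlapped broadly, although 10 of 12 AU rats lay under the young median. Its difference was -0.51 ± 0.18 (p = 0.00954, adjusted p = 0.705), -0.74 in R9 and -0.27 in R1-R2. The proliferation genes Cenpf (-0.94) and Birc5 (-0.81) had low counts, Sox11, a factor of immature neurons, differed by -0.45 and the abundant tubulin Tubb2b by -0.19. Young rat R9881 had the highest score of this list, 1.14, and without it and R9865 the median of the list was -0.06 and the difference of Dcx -0.41. The list was not lower in DG alone, with 4 of 19 above 0 in CA3 (median -0.11) and 7 of 21 in CA1 (median -0.09). For DG minus CA3 its median was -0.007 and for DG minus CA1 -0.03. In DG, AI minus AU was above 0 in 17 of 20 (median 0.20), and in 15 of 20 (median 0.07) without R9865, R9781, R9872 and R9874. AI minus young had a median of -0.03.

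Mature granule cell markers did not separate the groups. Of 12 tested 7 were above 0, the median was 0.04 and 0 passed an unadjusted p under 0.01, and without R9881 and R9865 the median was 0.0019. The synaptic organisers C1ql2 (0.47 ± 0.28) and C1ql3 (0.31 ± 0.27) and the opioid precursor Pdyn (0.34 ± 0.22), carried by mossy fibres, all had p over 0.05. GABA receptor genes were above 0 in 3 of 13, with Gabra5, the alpha subunit of an extrasynaptic receptor, at -0.37 (p = 0.0723) and Gabrd, the delta subunit typical of granule cells, at 0.34 (p = 0.0653). Interneuron markers were above 0 in 11 of 15 with a median of 0.13, which was 0.045 without R9881 and R9865 and 0.23 without R1930. Npy, a neuropeptide of hilar interneurons, was at 0.56 (p = 0.0266). Of the immediate early genes 12 of 19 were above 0, and 9 of 19 without R9881 and R9865, with Fosb at 0.51 (p = 0.0425). The presynaptic scaffold Pclo was at -0.26 (p = 0.0278), and Fgf1, an acidic fibroblast growth factor, at -0.96 (p = 0.0271) with its highest young value, 63.4, in R9881. None of these passed the adjusted test.

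Myelin genes had a median of -0.03 with 8 of 17 above 0, Mbp at 0.04 ± 0.23, and oligodendrocyte precursor genes a median of 0.05 with 8 of 13 above 0, Cacng4 at 0.36 ± 0.21. Without R9881 and R9865 the medians were 0.059, with 12 of 17 above 0, and 0.11, with 9 of 13 above 0. Neither list held a gene at an unadjusted p under 0.01 with or without those libraries.

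Among matrix and adhesion genes, 11 of 37 collagens tested were above 0 with a median of -0.11. The share depended on R1930 and on the series, with 17 of 37 above 0 without R1930 (median -0.041), 18 of 37 within R9 (median -0.046) and 9 of 34 within R1-R2 (median -0.24). Col11a1 was the single member at an unadjusted p under 0.01. Col11a1, a chain of fibrillar collagen, had normalized counts of 226, 325 and 499 in young rats and 113, 188 and 314 in AU rats. All 12 AU rats lay under the young median and 7 under every young rat. Its difference was -0.76 ± 0.17 (adjusted p = 0.21), -1.0 in R9 and -0.51 in R1-R2, and it was among the 2 genes called lower by DESeq2 (adjusted p = 0.0276). Col24a1 differed by -0.60 (p = 0.0253), Col18a1, the basement membrane collagen that yields endostatin, by 0.55 (p = 0.0226), and the abundant Col11a2 by 0.08 ± 0.15.

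Laminins and other matrix genes centred on 0.02, with 15 of 26 above 0. Lama2, a laminin chain of basement membranes, ran from 63.5 to 114 (median 91.0) in young and from 37.2 to 88.6 (median 65.8) in AU rats, with all 12 AU rats under the young median. Its difference was -0.50 ± 0.14 (adjusted p = 0.609). Tnr, the tenascin of perineuronal nets, differed by -0.12 ± 0.08.

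Of 46 cadherins and protocadherins tested 28 were above 0 with a median of 0.07, and 5 were higher at an unadjusted p under 0.01, Cdh1 among them, against 3 without R9881 and R9865. Cdh23, known from the tip links of hair cells, ran from 54.9 to 124 (median 87.1) in young and from 89.4 to 161 (median 125) in AU rats, with 6 AU rats above the young range. Its difference was 0.57 ± 0.14 (adjusted p = 0.323). The other members were 3 clustered protocadherins, Pcdhb15 (0.72), Pcdhb4 (0.45) and Pcdhb14 (0.35), whose like sequences make the division of reads uncertain. The neuronal N-cadherin Cdh2 differed by -0.02 ± 0.08.

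Ptgfr, the receptor of prostaglandin F2-alpha, was the other gene called lower by DESeq2 (adjusted p = 0.0276). Its normalized counts were low, 2.60, 9.85 and 16.7 in young rats and 0, 2.63 and 4.68 in AU rats. All 12 AU rats lay under the young median and 6 under every young rat, with a difference of -1.72 ± 0.38 (adjusted p = 0.21 with limma). In oxidative phosphorylation 15 of 25 genes were above 0 and the median was 0.01, with the complex IV subunit Cox6c lower (-0.65 ± 0.20), the complex I subunit Ndufs7 higher (0.46 ± 0.15) and the abundant Atp5b at 0.05 ± 0.09. Heme oxygenase, Hmox1, which responds to oxidative stress, differed by 0.48 ± 0.15 (adjusted p = 0.705), the single member of 25 stress and defence genes at an unadjusted p under 0.01. All 24 tested genes from the list of age-related genes given by the study were above 0 with a median of 0.44, and 14 were higher at that threshold. That list was chosen in part on these libraries and is not independent evidence of a direction.

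**Figure D4:**
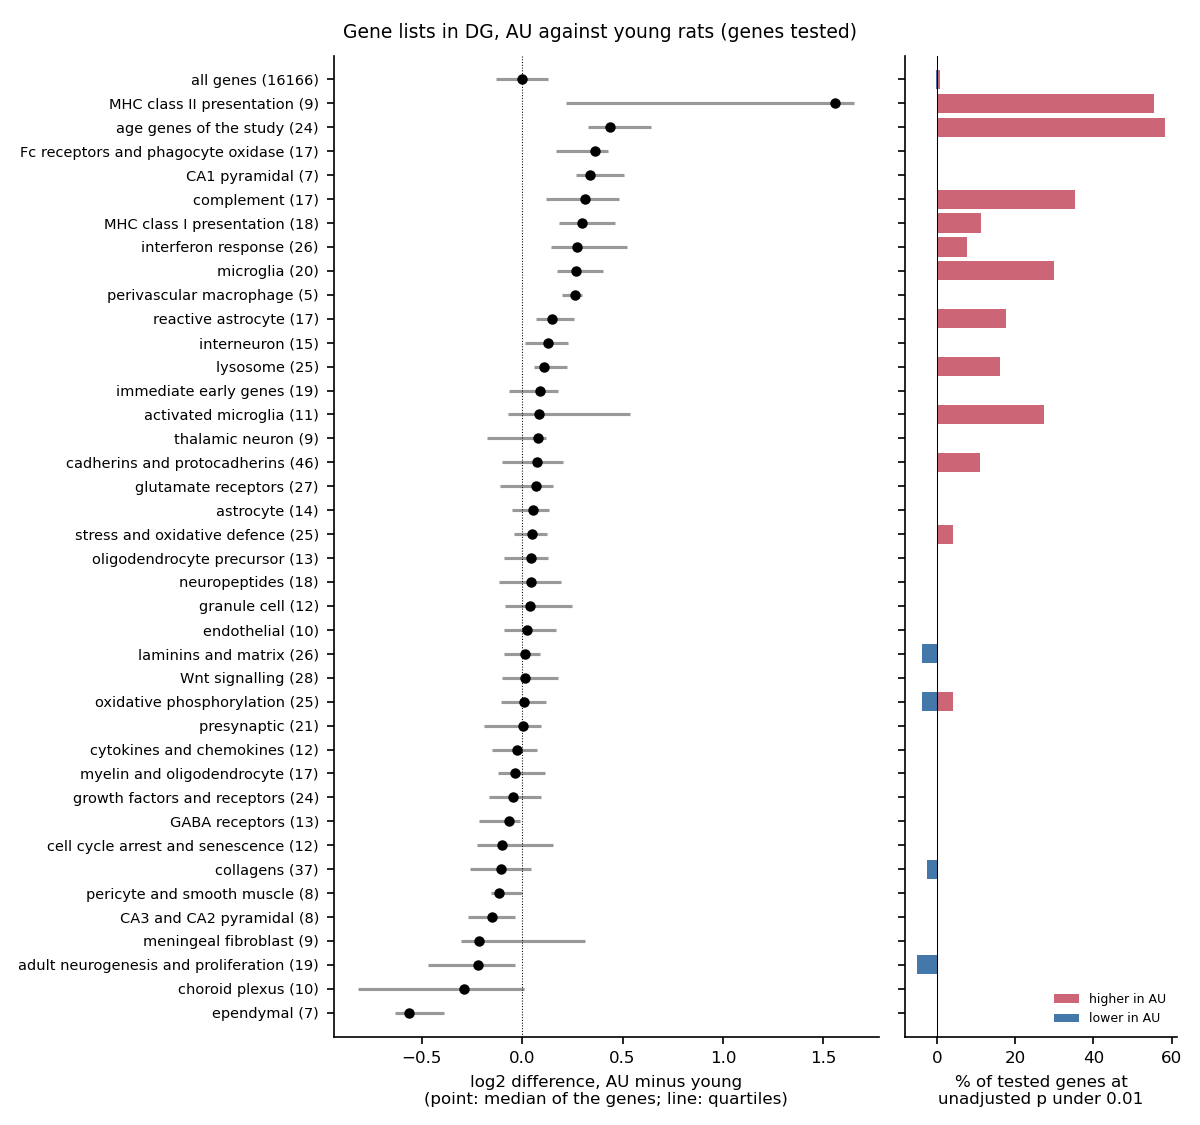
Left, the median (point) and quartiles (line) of the log2 differences, AU minus young in DG, of each gene list with at least 5 genes tested, the number tested in brackets. Right, the percent of tested genes at an unadjusted p under 0.01, higher in AU to the right and lower to the left. MHC class II presentation has the highest median, 1.56, and ependymal markers the lowest, -0.57, the latter list holding no gene at that threshold.

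Ependymal and choroid plexus markers were the lowest lists. Of 7 ependymal markers tested 0 were above 0, with a median of -0.57, which was -0.19 without R9881 and R9865, and for choroid plexus the median was -0.29, and -0.02 without them. The young highest sum of ependymal markers, 1243 against a young median of 160, was that of R9881. CA1 pyramidal markers were above 0 in 6 of 7 with a median of 0.34 (0 at an unadjusted p under 0.01), and without R9881 and R9865 in 4 of 7 with a median of 0.054. CA3 and CA2 pyramidal markers were above 0 in 2 of 8 with a median of -0.15, and without them in 3 of 8 with a median of -0.081. Their part in the other differences was not tested.

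The next question was whether these levels differed between AU and AI rats. In the direct test of AI against AU in DG, limma called 0 of 16182 genes at an adjusted p under 0.05, with 287 at an unadjusted p under 0.05, and DESeq2 called 0. At an unadjusted p under 0.01, 19 genes were higher in AI (0.117%) and 15 lower (0.0927%). AI minus AU was 0.07 ± 0.18 for Gpnmb, 0.25 ± 0.20 for Cdh1, 0.03 ± 0.13 for Trem2, -0.13 ± 0.20 for C4a and 0.09 ± 0.13 for Gfap. The class II genes had wider errors, 0.55 ± 0.39 for Cd74 and 0.54 ± 0.40 for RT1-Ba, with AI medians of 419 and 86.3 beside AU medians of 206 and 49.2. Granule cell markers were above 0 in 0 of 12 in this test, with a median of -0.30, and in 3 of 12 AI rats, R9781, R9872 and R9874, DG was not the subfield with the highest level of them. Those rats, all of the R9 series, had Cd74 values of 835, 622 and 784. R9870 and R9875, R9 AI rats whose DG did hold the highest level, had 674 and 608. Without R9781, R9872, R9874 and AU rat R9865 the granule cell median was -0.063. AI minus AU was then 0.22 ± 0.42 for Cd74 and 0.21 ± 0.44 for RT1-Ba. With those 4 left out, limma called 0 genes at an adjusted p under 0.05, with 185 at an unadjusted p under 0.05. All 4 belong to R9, so the balance of the series changed too, and granule cell level and series cannot be told apart here. Lama2 was 0.38 ± 0.13 higher in AI than in AU rats (p = 0.00552), with an AI median of 84.1 beside a young median of 91.0, and did not pass the adjusted test. Without the 4 rats its difference was 0.28 ± 0.13 (p = 0.0445). Ptgfr was under the minimum mean in that comparison and had an AI median of 6.67.

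The same rats gave CA1 and CA3, so the AU minus young difference in DG was compared with those in CA1 and CA3 within rats. No gene passed an adjusted p under 0.05 in limma for DG minus CA1 (16287 genes, 501 at an unadjusted p under 0.05) or DG minus CA3 (16351 genes, 268). At an unadjusted p under 0.01 there were 65 genes (0.399%) and 31 genes (0.19%). For DG minus CA1, 9143 of 16287 genes were above 0, as were 12 of 12 granule cell and 15 of 15 interneuron markers. For DG minus CA3 these were 8774 of 16351, 7 of 12 and 12 of 15. The DG libraries of R9881 and R9865 were kept, and these fits were not repeated without them. The part of mixed tissue in the differences between subfields was not tested. Gpnmb differed between AU and young by 0.65 ± 0.20 in CA1 and 0.57 ± 0.24 in CA3, and the DG difference exceeded these by 0.37 ± 0.23 and 0.45 ± 0.30. Cdh1 differed by 1.64 ± 0.49 in CA1 and 1.12 ± 0.55 in CA3. The DG difference of Cdh1 exceeded that in CA1 by 0.79 ± 0.55 and that in CA3 by 1.31 ± 0.63 (p = 0.0478, not passing the adjusted test).

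C4a differed by 1.05 ± 0.19 in CA1 and 0.86 ± 0.29 in CA3, and Cd74 by 1.14 ± 0.84 and 1.94 ± 0.44. The gap between DG and the other subfields was within its SE for both genes. C1qa, at 0.08 ± 0.26 in CA1 and 0.15 ± 0.14 in CA3, and Irf7, at 0.28 ± 0.22 and 0.04 ± 0.32, had larger values in DG. The DG excess over CA3 was 0.34 ± 0.18 for C1qa (p = 0.0704) and 0.66 ± 0.31 for Irf7 (p = 0.041), neither passing the adjusted test. ENSRNOG00000028900 had the widest gap among the genes named, 2.0 ± 0.51 for DG minus CA1 (p = 0.000651, adjusted p = 0.969).

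**Figure D5:**
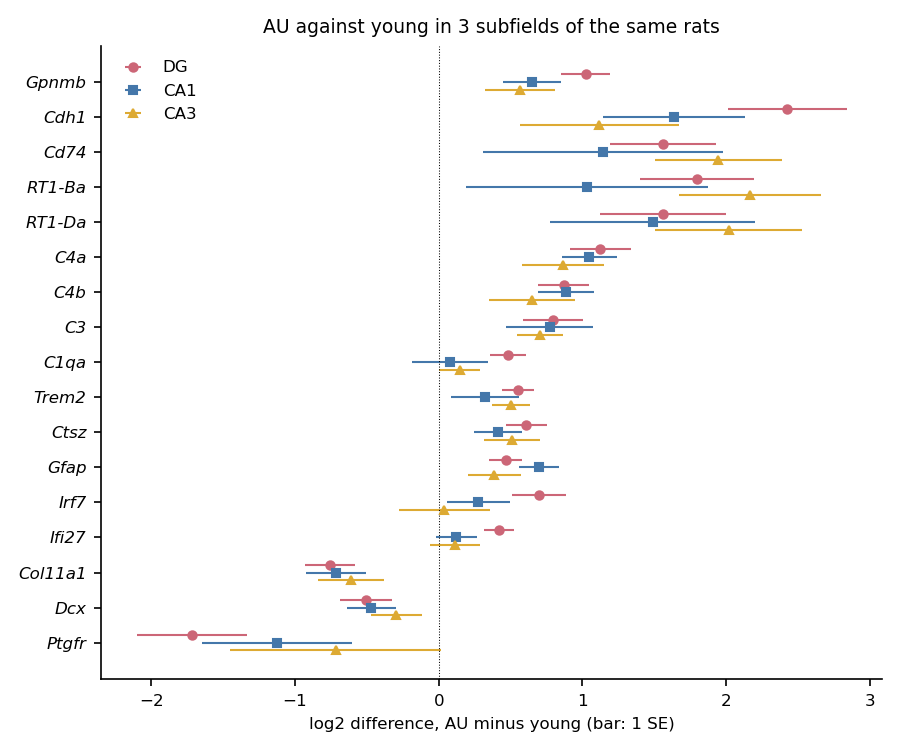
The log2 difference, AU minus young, of 17 genes in DG (circles), CA1 (squares) and CA3 (triangles) of the same rats, with bars of 1 SE. For C4a, C4b, C3 and Col11a1 the 3 points lie within their bars of each other, and for Gpnmb, Cdh1 and Irf7 the DG point lies farthest from 0.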

How the data were processed

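Per the labels and the methods of the study, the authors removed low-quality Ion Proton reads, aligned them to rn5 with TopHat2 and Bowtie2 in Partek Flow, counted reads per gene with featureCounts 1.4.4 and divided the counts by DESeq2 1.10.1 size factors. The deposited signal values are these normalized counts, for 26689 genes and 102 libraries, and every value was within 0.001 of a whole read after the size factor was undone. Of 4719 genes without a deposited symbol, 432 took one from the supplementary tables of the study. Where a symbol stood on several rows, the row with the higher mean was used.

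The log2(normalized count + 1) values of genes with a mean of at least 5 were tested with limma 3.58.1 (trend, Benjamini-Hochberg, R 4.3.3), AU against young in DG, without covariates. DG was compared with CA1 and CA3 with the rat as a block, since the labels give the rat of each library. The recovered reads were also tested with edgeR 4.0.16 and DESeq2 1.42.0. On simulated counts for 16022 genes in this comparison, limma called 69% of genes changed by 1 on the log2 scale and 37% of those changed by 0.5. The shares called were 71% and 35% with edgeR and 77% and 49% with DESeq2. Of the calls, 3.64% were false with limma, 5.36% with edgeR and 8.7% with DESeq2. The simulation changed 100 genes of each size and held no series effect and no library of mixed tissue. There limma made 110 calls, against 2 in the data, so its adjusted threshold was easier to pass and the shares called need not hold here. The p-values measure the spread between rats, with 1 library each.

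Genes were named by a rule: up to 15 genes in each direction at an adjusted p under 0.05, and in each list the 3 members with the smallest p and the member with the highest mean. Ptgfr, ENSRNOG00000028900 and the other list members given were chosen after their values were seen, and not every gene the rule takes is printed. The gene lists and the comparison were chosen with earlier results of these data known. Fits without R9865 and R9881, without R1930, of AI against AU without R9865, R9781, R9872 and R9874, and with an interaction of group and identifier series were added after seeing the data. Promoters are from RefSeq on GRCr8, and were matched by symbol. No column of the table was left without a sample.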

Additional observations from a re-analysis of the deposited data

Results flagged for a closer look

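Among 103 values examined in the 10 young DG libraries, 12 had a library that stood far from the other young rats, where the criterion would by chance take about 1 in 20 independent values. These values are not independent, since genes of a list share libraries, and no chance rate was measured for them. Of these, 7 were in rat R9881: Gpnmb at 168.6 normalized counts, Laptm5 at 376.9, RT1-CE16 at 683.5, Fgf1 at 63.37 and Mbp at 97350, the score of the adult neurogenesis and proliferation list at 1.143 and that of the granule cell list at -1.429, the last lying below the others. Rat R2221 stood above the others for Col11a2, at 2340 normalized counts, and for C1ql2, at 2247. Rat R2175 stood above them for C1qc at 464.8, rat R1923 for Aldoc at 10890 and rat R9780 for ENSRNOG00000028900 at 26.56. The AU and AI groups, of 12 rats each, were not examined in this way.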

How the results depend on the processing

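The 85 genes named kept their direction under pseudocounts of 0.5 and 5, no filter, TMM scaling, the identifier series as a covariate, all 34 DG libraries in 1 fit, edgeR and DESeq2, and without R1930. With a minimum mean of 20, 77 of 77 did. Signs turned within series or without R9881 and R9865 for Rtp4 (-0.080 in R9), B2m (-0.10 in R9), Apoe (-0.13), Cd59 (0.11), Cdh2 (0.12), Col11a2 (-0.26), Atp5b (-0.042) and Sox9 (-0.088) in R1-R2, and for Cd59 (0.024) and Cdh2 (0.0024) without those libraries, and the cause was not tested. Genes higher at an adjusted p under 0.05 numbered 1 with a pseudocount of 0.5, 0 without a filter, 7 with the series covariate, 0 with edgeR, 17 with DESeq2 (2 lower) and 0 within either series, where fewer rats were tested. Cdh1 had an adjusted p of 0.0604 with the pseudocount of 0.5, and both called genes had 0.0649 without a filter and 0.118 with edgeR. Gpnmb had 0.0647 with all 34 libraries. At an unadjusted p under 0.01, R1-R2 alone gave 52 genes higher, and the genes lower numbered 83 without a filter, 68 with the series, 77 with DESeq2, 113 in R9, 17 in R1-R2, 25 without R9881 and R9865 and 76 without R1930. The class II median was 0.59 without a filter and 0.34 with the shrunken differences of DESeq2, and the interferon median -0.08 in R9. For AI against AU the series covariate gave 43 higher and 24 lower, and leaving out R9865, R9781, R9872 and R9874 gave 8 lower. Without the replicate block, which pairs the subfields of a rat, DG minus CA1 gave 16 higher and 13 lower and DG minus CA3 15 higher, and with the series covariate DG minus CA3 gave 11 lower. Depths of 4742307 to 18739670 reads leave genes of a few reads, such as Ptgfr and Cdh1, with wide errors.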
